A study of Mus musculus with 18 samples.

Results

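Solute carrier genes were followed over 6 daily stages of heart development, in cells sorted from embryonic mouse ventricles. A gene was taken when its symbol in the platform's probe table had the form Slc, a family number, the letter a and a member number, leaving out Slc4a1 and Slc2a1 as the rule does. A probe above a background floor of 109 intensity units on at least 3 of the 18 arrays was also required. Of 325 such symbols on the array 172 passed, among 10963 genes measured in the same way in all. Of the 172, 4 carry the symbol without being carriers themselves: Slc9a3r1 and Slc9a3r2, scaffold proteins that bind exchangers and other membrane proteins, and Slc4a1ap and Slc7a6os, named for a partner or a neighbour. The members next to the floor were Slc25a2, Slc29a2 and Slc7a1, whose third-highest arrays read 109.3, 109.6 and 109.6 intensity units, and the nearest symbols left out were Slc2a9, Slc39a14 and Slc25a42 at 108.7, 108.5 and 108.1.

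The cells were the brightest green ones, labelled Wt1GFP++, from mouse embryos with green fluorescent protein knocked into the Wt1 locus. All 18 arrays come from such embryos, and no other genotype, agent or sorted fraction is compared here. Ventricles were broken up with enzymes, cells were sorted by fluorescence, and 3 arrays were made at each of E11.5, E12.5, E13.5, E14.5, E15.5 and E16.5 (embryonic days). The sources used here give no strain, no zygosity of the knock-in and no number of embryos pooled per array. They also leave unsaid whether the replicates were separate litters, and p-values therefore cover only the spread among these arrays, part of which may be technical. A Wt1 reporter marks the cells that cover the heart's surface, the epicardium, but also any other cell that uses that locus. Wt1 itself was not analysed here.

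Solute carriers are membrane proteins that move amino acids, sugars, ions, metals, vitamins and metabolites into cells or between a cell's compartments. Some let a solute run down its own gradient, and others couple it to sodium, protons, chloride or a second solute. Most of one large family sits in the inner mitochondrial membrane and links the matrix to the cytosol. In a growing heart these genes set what each cell type can take up, export and exchange with blood and pericardial fluid.

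Values below are log2 of the deposited probe intensities, each array having the same distribution of values. A gene was called where its adjusted p was under 0.05 in limma, a linear model with a spread shared across genes, after Benjamini-Hochberg adjustment over all 10963 genes. Background signal, with a mode of about 99 intensity units, remains in the values, which makes the log2 difference or fold of a dim gene an understatement of the change in its RNA. In these sorted populations fewer cells of a type and less RNA per cell cannot be told apart. The arrays cannot be ranked by depth, and their number limits the precision. Across the members, the least alike pair of replicates had a Pearson's r of 0.966 at E13.5, of 0.939 at E15.5 and of 0.957 at E16.5, and 0.985 or more at the other stages. Those 3 stages held arrays that differed in cardiomyocyte markers. The mean log2 intensity of 16 such markers stood at 10.93 for replicate 1 of E15.5 and 10.75 for replicate 1 of E16.5, while the remaining arrays of both stages gave 8.82 to 9.16. At E13.5 it was 9.72 and 9.95 on replicates 1 and 3, and 8.94 on replicate 2.

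The regions just upstream of 4 members' starts are shown because these genes stood at the ends of the distribution: Slc23a3 and Slc9a3r1 had the largest measured rises over the 6 stages, Slc1a3 had the largest measured fall, and Slc38a5 had the largest reversal. Each is the 250 bases before the annotated start, from RefSeq on build GRCm38.p6, written 5′ to 3′ on the gene's strand. Capitals mark matches to 6 motifs, each searched on both strands. The first was the GC box, whose letters are GGGCGG. A second was the CCAAT box, which is searched by its own name. The TATA box was searched as TATAAA. For the E box the letters were CACGTG. The cAMP response element was searched as TGACGTCA. For the AP-1 site they were TGANTCA, with any base at N. The windows lie at chr1:75133891-75134140 on the minus strand for Slc23a3, chr11:115163091-115163340 on the plus strand for Slc9a3r1, chrX:8271131-8271380 on the plus strand for Slc38a5 and chr15:8710808-8711057 on the minus strand for Slc1a3.
Slc23a3: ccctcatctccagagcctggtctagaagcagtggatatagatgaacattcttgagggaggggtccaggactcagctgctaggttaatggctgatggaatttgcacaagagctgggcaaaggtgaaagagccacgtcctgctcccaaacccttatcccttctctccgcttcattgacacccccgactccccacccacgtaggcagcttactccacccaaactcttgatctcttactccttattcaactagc
Slc9a3r1: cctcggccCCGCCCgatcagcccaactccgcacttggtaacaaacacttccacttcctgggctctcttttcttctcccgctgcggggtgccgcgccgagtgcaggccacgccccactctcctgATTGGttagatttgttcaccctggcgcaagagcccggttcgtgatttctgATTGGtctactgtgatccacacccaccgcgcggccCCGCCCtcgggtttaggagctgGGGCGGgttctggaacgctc
Slc38a5: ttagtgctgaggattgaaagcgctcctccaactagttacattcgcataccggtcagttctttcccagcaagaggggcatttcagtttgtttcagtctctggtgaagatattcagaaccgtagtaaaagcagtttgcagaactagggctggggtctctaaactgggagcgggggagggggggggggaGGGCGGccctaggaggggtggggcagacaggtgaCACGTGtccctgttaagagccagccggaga
Slc1a3: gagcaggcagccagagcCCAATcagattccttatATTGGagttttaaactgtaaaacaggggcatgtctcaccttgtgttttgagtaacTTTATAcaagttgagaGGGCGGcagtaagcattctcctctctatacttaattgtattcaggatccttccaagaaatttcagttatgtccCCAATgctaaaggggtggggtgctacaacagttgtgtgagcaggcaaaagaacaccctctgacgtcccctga
The Slc9a3r1 window held 3 GC boxes and 2 CCAAT boxes, that of Slc38a5 a GC box and an E box, and that of Slc1a3 a GC box, 3 CCAAT boxes and a TATA box 161 bases before the start. No matches overlapped, and the Slc23a3 window held none of these letters. Among 32851 RefSeq windows of that length 32.7% held a GC box, 33.8% a CCAAT box, 12.4% a TATA box, 6.02% an E box, 1.55% a cAMP response element and 6.75% an AP-1 site. A match is a string of letters and not a shown binding site. RefSeq's table had a window for 135 of the 172 members.

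Solute carrier genes were mostly dim in these cells. The median member had a mean log2 intensity of 7.05 over the 18 arrays, against 7.50 for all genes measured, and 101 members (58.7%) were above the floor on every array, against 70.3% of all genes. Only 37 members had a mean above 8, and 5 had a mean above 10. Another 21 were above the floor on just 3 to 6 arrays. The brightest member was Slc25a5, which exchanges ADP for ATP across the inner mitochondrial membrane, with stage means between 11.93 at E11.5 and 12.46 at E14.5. It did not pass the test over stages (adjusted p = 0.16, limma F test). After it, by mean intensity, came the amino acid carriers Slc38a5 and Slc38a2, the sodium, potassium and chloride cotransporter Slc12a2, the choline transporter Slc44a1 and the taurine transporter Slc6a6. Probe brightness orders probes and not RNA amounts, since probes differ in how they bind.

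Over the 6 stages 65 of the 172 members (37.8%) were called by the F test, against 40.3% of all genes. Of these 65, 24 had their highest stage mean at E16.5 and 15 at E11.5, while E13.5 held the highest mean of 14. The lowest stage mean fell at E11.5 for 30 of them and at E14.5 for 16, and only 2 had their highest mean at E14.5. The share of members called was near that of all genes. Highest and lowest stages were not counted over all genes, so whether the members differ from other genes in this was not tested.

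Between E16.5 and E11.5, 54 members (31.4%) were called, against 34.3% of all genes. Of these 36 rose (20.9%, against 15.8% of all genes) and 18 fell (10.5%, against 18.5% of all genes). Under cyclic loess between arrays the split was 40 and 10, beside 18.5% higher and 13.9% lower over all genes. The median member differed by 0.02 on the log2 scale, against -0.03 over all genes. By 2-fold or more as measured, 8 members rose (4.65%, against 4.13% of all genes) and 1, Slc1a3, fell (0.581%, against 1.19%). Among the 101 members above the floor on every array 24 rose and 14 fell. In a fit restricted to such genes 23 members rose and 13 fell, beside 15% and 22% of the genes tested there. Leaving out the 4 genes that are not carriers gave 35 rises and 18 falls.

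Slc23a3 (probe ILMN_1218441), a relative of the sodium-coupled vitamin C transporters, had the largest measured rise. Its log2 intensities were 8.77, 9.38 and 9.58 at E16.5, against 6.71, 6.60 and 6.69 at E11.5, where no array was above the floor. That is a rise of at least 5.57-fold (adjusted p = 4e-07, limma), and the arrays of the stages did not overlap. Most of it came late: the stage mean was 7.03 ± 0.13 (SD, n = 3) at E12.5, 7.16 ± 0.18 at E13.5 and 7.18 ± 0.12 at E14.5, then 8.24 ± 0.49 at E15.5. The riboflavin transporter gene Slc52a3 also had most of its rise late. It read 7.38, 7.91 and 8.17 at E16.5, against 6.72, 6.66 and 6.68 at E11.5 and under the floor on every array up to E13.5, a rise of at least 2.08-fold (adjusted p = 0.00024, limma). At E15.5 and E16.5 both genes were lowest on replicate 1, the array of each stage with raised cardiomyocyte markers, whose part in these levels was not tested.

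Slc9a3r1 (probe ILMN_1240256), which encodes a scaffold with PDZ domains under the membrane of epithelial cells, rose 4.15-fold, by 2.05 ± 0.24 (SE) on the log2 scale (adjusted p = 1.1e-05, limma). Its arrays read 9.54, 10.29 and 10.41 at E16.5, against 7.97, 8.25 and 7.85 at E11.5, with no overlap. Its stage means stayed between 8.03 and 8.35 from E11.5 to E14.5. Slc66a2, a protein of the PQ-loop type, rose 3.38-fold and more evenly. Its arrays read 9.59, 9.58 and 9.66 at E16.5, against 7.97, 7.89 and 7.72 at E11.5 (adjusted p = 4.5e-07, limma), and its mean was higher at each stage than at the one before. Slc45a4, of the proton-coupled sugar transporter family, read 9.17, 9.41 and 9.45 at E16.5, against 8.01, 7.98 and 7.99 at E11.5. That was a rise of 1.35 ± 0.16 (SE) (adjusted p = 1.3e-05, limma). Other probes of Slc45a4 differed by 1.01 and 0.46.

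Among carriers of mitochondria, Slc25a45 was under the floor on all arrays at E11.5 and rose at least 2.04-fold. It read 7.80, 7.90 and 7.69 at E16.5, against 6.67, 6.60 and 6.58 at E11.5 (adjusted p = 1.1e-06, limma). Slc25a25, a calcium-sensitive carrier of ATP-Mg and phosphate, rose by 0.94 ± 0.17 (SE) (adjusted p = 0.00045, limma). The taurine transporter Slc6a6 averaged 10.77 ± 0.12 at E16.5 and 9.71 ± 0.04 at E11.5 (SD, n = 3 each), with no overlap (adjusted p = 2.8e-06, limma). A dimmer probe of Slc6a6 differed by 0.16, against 1.06 for the main one. Slc29a1, through which nucleosides such as adenosine equilibrate across the membrane, rose by 0.98 ± 0.15 (SE), and its dimmer probe differed by 0.26 (adjusted p = 0.00017, limma, for the main probe). The lysosomal transporter Slc46a3 rose at least 1.79-fold against a floor-level E11.5 (adjusted p = 0.00015, limma), and Slc24a3, an exchanger of sodium for calcium and potassium, rose by 0.91 ± 0.12 (SE) (adjusted p = 4.5e-05, limma).

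Slc1a3 (probe ILMN_2634317), a glutamate and aspartate transporter well known from astrocytes, was the only member whose measured fall reached 2-fold. Its arrays read 8.48, 8.67 and 8.97 at E16.5, against 10.14, 10.08 and 10.07 at E11.5. The fall was by 1.39 on the log2 scale, with an SE of 0.14 (adjusted p = 2.7e-06, limma), and the arrays did not overlap. Its stage means stepped down through 9.84 at E12.5, 9.52 at E13.5, 9.37 at E14.5 and 9.01 at E15.5. Slc17a8, which loads glutamate into vesicles, was seen above the floor on all 3 arrays only at E11.5, where it read 7.34, 7.45 and 7.46. At E16.5 no array was above the floor, and the fall was at least 1.57-fold (adjusted p = 7.2e-08, limma).

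The other falls were smaller. Slc2a3, a glucose transporter of high affinity, fell by 0.50 on the log2 scale with an SE of 0.12, averaging 7.58 ± 0.21 at E16.5 and 8.08 ± 0.11 at E11.5 (SD, n = 3 each; adjusted p = 0.004, limma). Slc19a1, which carries reduced folates into cells, averaged 7.09 ± 0.05 at E16.5 and 7.56 ± 0.03 at E11.5 (adjusted p = 2.4e-05, limma). Slc27a3, of the fatty acid transport protein family, fell by 0.51 and the zinc importer Slc39a6 by 0.50 (adjusted p = 0.0004 and 0.0035, limma). Slc7a6, which exchanges cationic for neutral amino acids, fell by 0.41, and Slc25a1, which exports citrate from mitochondria, fell by 0.32. The remaining falls by the rule were under 0.3: Slc29a3, a nucleoside transporter of lysosomes, by 0.27, the glutamine transporter Slc38a1 by 0.27, Slc25a38, which supplies mitochondria with glycine for heme, by 0.26, and the zinc importer Slc39a10 by 0.25. Slc38a1 lost its call without E11.5 replicate 1 or 2 or without E16.5 replicate 3, and Slc25a38 without replicate 2 of either stage (highest adjusted p = 0.11 and 0.056, limma). Slc29a3 lost its call without replicate 2 or 3 of E11.5, or replicate 1 or 2 of E16.5 (adjusted p up to 0.13, limma). Slc39a10 lost it without E11.5 replicate 1 or 3, E12.5 replicate 2 or 3, E13.5 replicate 3, E14.5 replicate 2 or 3, E15.5 replicate 2, or E16.5 replicate 2 or 3 (adjusted p up to 0.22, limma). Under cyclic loess none of these 4 was called (adjusted p between 0.056 and 0.1, limma).

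**Figure D1:**
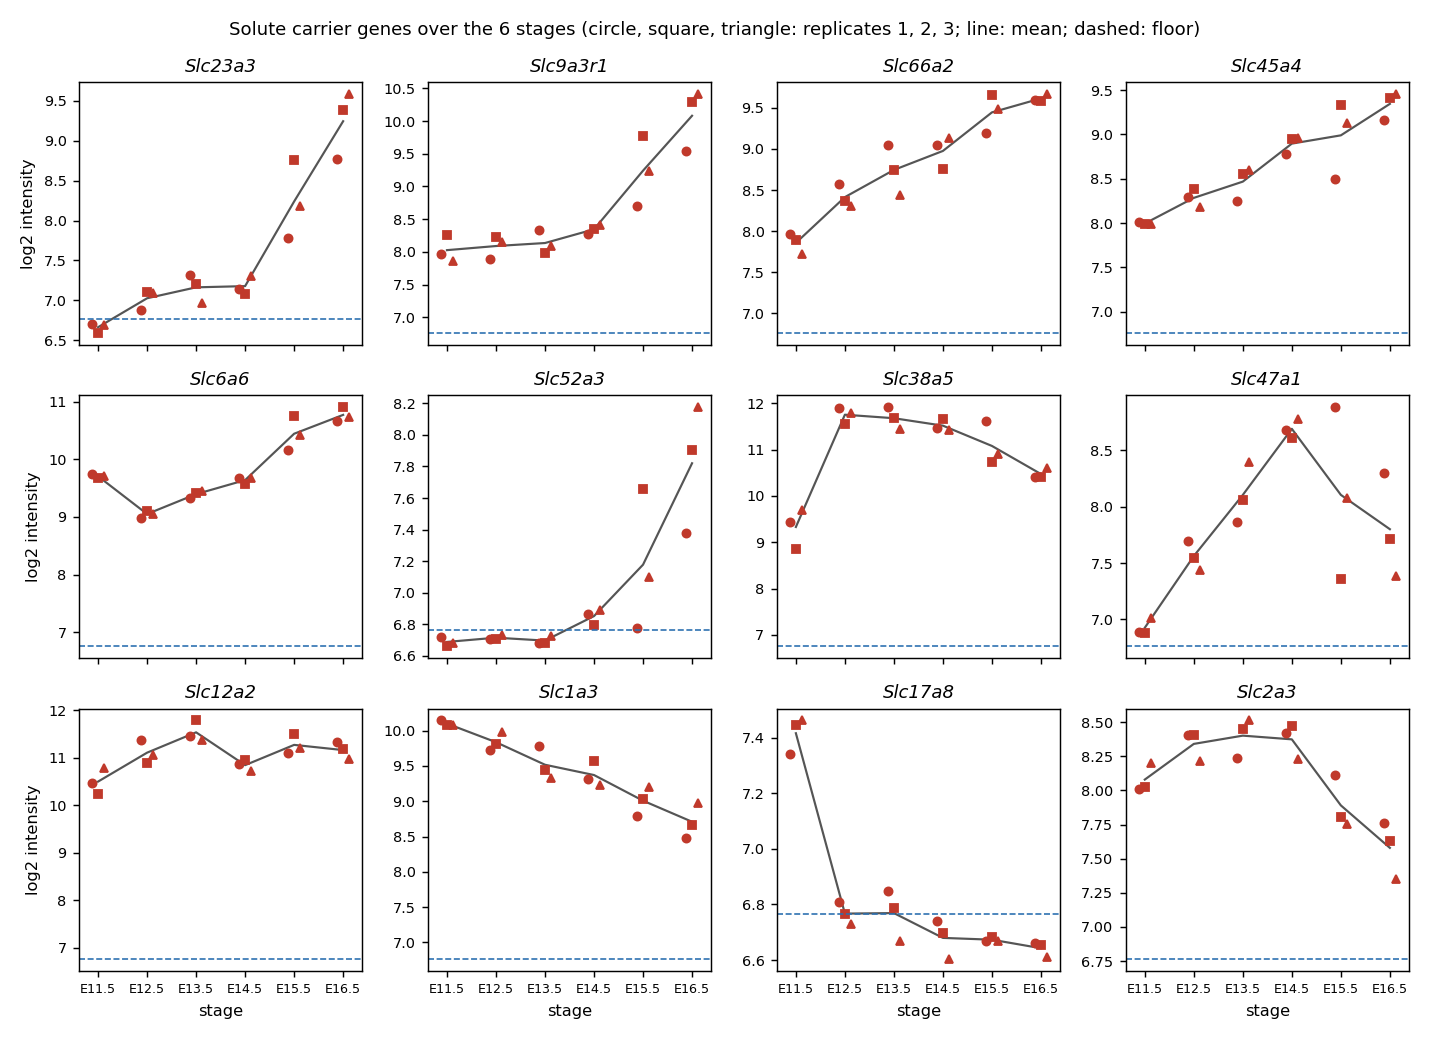
Log2 intensity (vertical axis) of 12 solute carrier genes at the 6 stages (horizontal axis); circles, squares and triangles are replicates 1, 2 and 3, lines join stage means and the dashed line is the background floor at 6.77. Slc9a3r1 stayed between 8.03 and 8.35 up to E14.5 and was higher afterwards, Slc23a3 had its larger step after E14.5, Slc38a5 had its step between E11.5 and E12.5, and Slc1a3 was lower at every later stage.

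Grouped by the substrates of their families, the members called between E16.5 and E11.5 were spread over most classes. Classes followed the family number in the symbol, with family 6 divided, and the 4 genes that are not carriers were counted too. Over all genes 15.8% were called higher and 18.5% lower across this span. Of 33 measured genes classed under amino acids and peptides 4 rose and 4 fell, and 25 did not pass the test. Of 30 mitochondrial carriers 6 rose and 5 fell, with a median difference of -0.01 on the log2 scale. Of 18 carriers of vitamins, choline, lipids and bile acids 7 rose and 3 fell. Of 23 genes in the class of inorganic ions and pH 4 rose, among them the scaffold gene Slc9a3r1, and 0 fell. Of 23 metal transporters 4 rose and 2 fell. Of 14 carriers of organic ions and neurotransmitters 5 rose and 1 fell, and of 12 carriers of sugars and polyols 2 rose and 1 fell. Class medians lay between -0.05 (nucleosides, nucleotide sugars and acetyl-CoA) and 0.11 (organic ions and neurotransmitters), beside 0.02 over all members. The sets are small and their counts are given as a description.

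**Figure D2:**
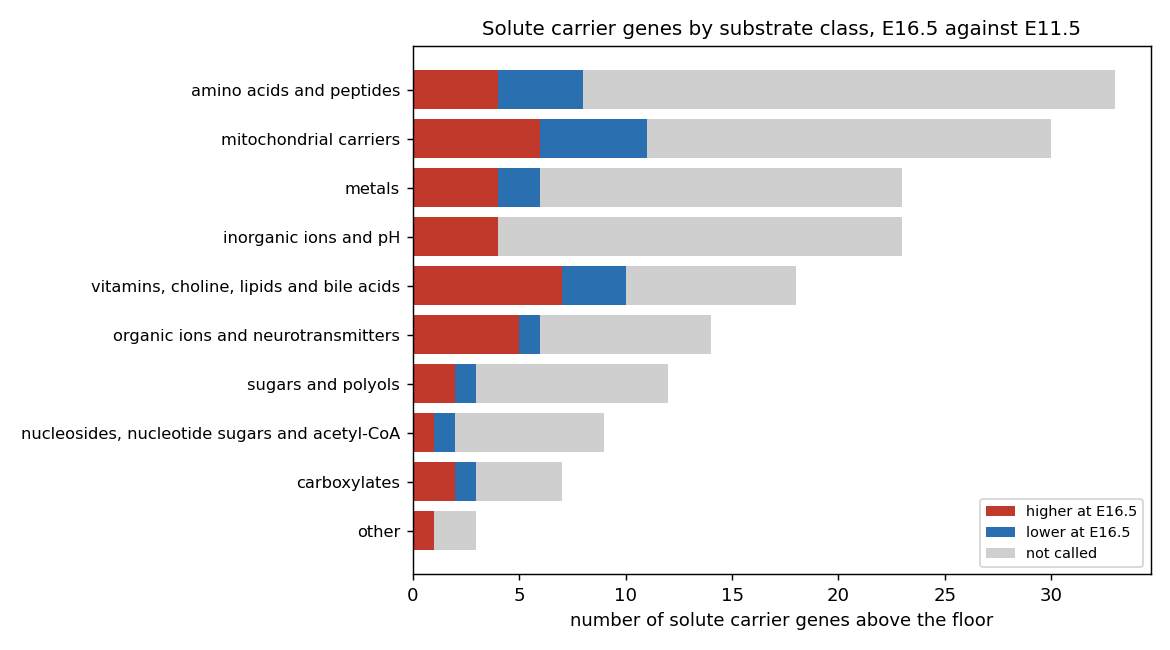
Number of solute carrier genes above the floor (horizontal axis) in each substrate class (vertical axis), divided into those called higher at E16.5 than at E11.5 (red), called lower (blue) and not called (grey). Carriers of vitamins, choline, lipids and bile acids had 7 higher and 3 lower of 18. The class of inorganic ions and pH, which includes the scaffold gene Slc9a3r1, had 4 higher and 0 lower of 23. Over all genes 15.8% were called higher and 18.5% lower.

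Families 13 and 16, grouped by family number as carriers of monocarboxylates and other carboxylates, were the smallest class but one. All 7 measured members were called by the F test over stages, against 40.3% of all genes. They are named here after their values were seen. Their courses differed. Slc16a6 averaged 6.89 ± 0.12 at E11.5, 7.42 ± 0.05 at E13.5 and 7.07 ± 0.08 at E16.5 (SD, n = 3 each), with its highest mean in the middle of the series. Slc16a4 was highest at E11.5, at 6.97 ± 0.02, and between 6.76 and 6.88 at the later stages. Slc16a9 and Slc16a13 rose between E16.5 and E11.5, by 0.36 ± 0.08 and 0.28 ± 0.06 (SE; adjusted p = 0.0022 each, limma), and Slc16a10 had no called difference there (0.09 ± 0.04). Slc16a3, which exports lactate from glycolytic cells, averaged 6.80 ± 0.01 at E16.5 and 7.01 ± 0.05 at E11.5, a small fall (adjusted p = 0.012, limma) that was not called without E11.5 replicate 1 (adjusted p = 0.053). These 6 genes of family 16 all stayed within 1 log2 unit of the floor. Slc13a4, a sulfate transporter of family 13 whose F test call was lost without any one of several arrays, is given with the early window.

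The early window compared E13.5 with E11.5. Here 26 members rose (15.1%, against 8.46% of all genes) and 10 fell (5.81%, against 8.62% of all genes), and the median member differed by 0.05, against -0.00 over all genes. The counts changed on leaving out single arrays, for which the shares of all genes are not given here. Rises numbered 13 without E13.5 replicate 3, 15 without E13.5 replicate 2, and 17, 15 and 16 without E11.5 replicates 1, 2 and 3. Falls numbered 5 without E13.5 replicate 3 and 18 without E13.5 replicate 1. Of 30 mitochondrial carriers 8 rose early and 1 fell, and of 14 carriers of organic ions and neurotransmitters 4 rose and 1 fell.

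Slc38a5 (probe ILMN_2649773), which carries glutamine and other neutral amino acids coupled to sodium and protons, had the largest early rise. Its arrays read 11.91, 11.67 and 11.45 at E13.5, against 9.45, 8.85 and 9.69 at E11.5. The rise was 5.09-fold, by 2.35 ± 0.22 (SE) on the log2 scale (adjusted p = 5.4e-06, limma), and the arrays did not overlap. The step was complete by E12.5, when the arrays read 11.91, 11.55 and 11.80. Slc12a2, which brings sodium, potassium and chloride into the cell together, read 11.46, 11.78 and 11.36 at E13.5, against 10.47, 10.23 and 10.79 at E11.5. That is a rise of 1.04 ± 0.16 (SE) (adjusted p = 0.00043, limma), and a second probe of the gene differed by 1.26. Slc12a2 was still higher at E16.5 than at E11.5, by 0.66 ± 0.16 (adjusted p = 0.0049, limma).

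The extruder of organic cations Slc47a1 was above the floor on every array and rose early. It read 7.86, 8.06 and 8.40 at E13.5, against 6.89, 6.88 and 7.01 at E11.5, a rise of 1.18 ± 0.29 (SE; adjusted p = 0.011, limma) that was not called without E13.5 replicate 3 (adjusted p = 0.055). Slc66a2 rose by 0.89 ± 0.15 in this window (SE; adjusted p = 0.00075, limma). Early falls were led by Slc13a4, a sodium-coupled sulfate transporter, which averaged 7.41 ± 0.20 at E13.5 and 8.08 ± 0.13 at E11.5 (SD, n = 3 each; adjusted p = 0.026, limma). It was no longer called on leaving out replicate 1 or 2 of E11.5, or replicate 2 or 3 of E13.5 (highest adjusted p = 0.099). Slc17a8 fell by 0.65, Slc1a3 by 0.58 and Slc27a3 by 0.49 (adjusted p = 1.5e-06, 0.01 and 0.0016, limma). Of these, Slc1a3 was not called without E13.5 replicate 3 (adjusted p = 0.055).

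The late window compared E16.5 with E14.5. In it 17 members rose (9.88%, against 9.75% of all genes) and 7 fell (4.07%, against 7.73% of all genes). Rises numbered 9 without E16.5 replicate 3 and 11 without E14.5 replicate 2. Falls numbered 4 without any one of E14.5 replicates 2 and 3 and E16.5 replicate 3. Shares of all genes are not given for these single arrays left out. With E15.5 replicate 1 and E16.5 replicate 1 both left aside, chosen once the values had been seen, 31 rose and 14 fell, beside 12.5% and 10% of all genes. Of the 17 rises 10 belonged to members that were not above the floor on all 18 arrays, since 7 of the 101 that were rose.

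Slc23a3 led the late rises. It read 8.77, 9.38 and 9.58 at E16.5, against 7.14, 7.08 and 7.31 at E14.5, a rise of 2.07 ± 0.21 (SE; adjusted p = 5e-05, limma), or 2.30 with both arrays left aside. Slc9a3r1 rose by 1.74 ± 0.24 (SE; adjusted p = 0.00033, limma) and Slc52a3 by 0.97 ± 0.19 (adjusted p = 0.0029). Slc6a6 had little spread. Its arrays read 10.67, 10.90 and 10.74 at E16.5, against 9.68, 9.57 and 9.67 at E14.5 (adjusted p = 3.2e-05, limma), and it had been lower than at E11.5 at E12.5, with a mean of 9.05 ± 0.06 (SD, n = 3). Slc48a1, which moves heme out of lysosomes, read 9.15, 9.59 and 10.21 at E16.5, against 8.50, 8.60 and 8.71 at E14.5. The groups did not overlap, but the rise of 1.05 ± 0.30 (SE; adjusted p = 0.026, limma) was not called without any one E14.5 array or without E16.5 replicate 2 or 3 (adjusted p up to 0.13).

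Late falls were led by Slc38a5, which turned round after its early step. It read 10.40, 10.40 and 10.61 at E16.5, against 11.47, 11.66 and 11.42 at E14.5, a fall by 1.04 with an SE of 0.22 (adjusted p = 0.0054, limma). It still stood 2.21-fold above E11.5 at E16.5 (adjusted p = 0.00096, limma). Slc2a3 fell by 0.80 with an SE of 0.12 (adjusted p = 0.00056, limma) and had means of 8.40 at E13.5 and 8.37 at E14.5. Slc1a3 fell by a further 0.66 (adjusted p = 0.0054, limma). Slc47a1 averaged 7.80 ± 0.46 at E16.5 and 8.69 ± 0.09 at E14.5 (SD, n = 3 each), with no overlap (adjusted p = 0.047, limma). That call was close to the threshold and was lost without any one array of E11.5, E12.5 or E14.5, or without E13.5 replicate 2, E15.5 replicate 3 or E16.5 replicate 2 or 3 (adjusted p between 0.056 and 0.2). The full-span rise of Slc47a1, 0.88 ± 0.29 (SE; adjusted p = 0.029, limma), was lost without any one E11.5 array or without E16.5 replicate 1 or 2.

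The difference between the windows was tested directly, as late minus early. It was called for 26 members (15.1%, against 12.9% of all genes), 13 with a positive difference (7.56%, against 6.67%) and 13 with a negative one (7.56%, against 6.19%). Without E13.5 replicate 1 the count was 39, for which the share of all genes is not given here. Slc38a5 had the largest, -3.39 ± 0.31 (SE; adjusted p = 1e-05, limma), followed by Slc47a1 at -2.07 ± 0.41 (adjusted p = 0.0036), Slc9a3r1 at 1.63 ± 0.34 (adjusted p = 0.0054) and Slc48a1 at 1.57 ± 0.42 (adjusted p = 0.023). Leaving out replicate 3 of E11.5, E13.5 or E16.5, replicate 2 of E13.5, or replicate 1 of E14.5 ended that call of Slc48a1 (adjusted p between 0.053 and 0.06, limma). The members called in both windows follow, and such calls were not counted over all genes. Slc38a5 and Slc47a1 rose early and fell late, Slc1a3 fell in both, and Slc12a8, a relative of the cation and chloride cotransporters named after its values were seen, fell early by 0.28 and rose late by 0.18 (adjusted p = 0.0016 and 0.026, limma). Slc66a2 rose in both, and so did the neutral amino acid exchanger Slc7a8, also named after its values were seen (0.33 early and 0.49 late, adjusted p = 0.024 and 0.0027, limma).

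**Figure D3:**
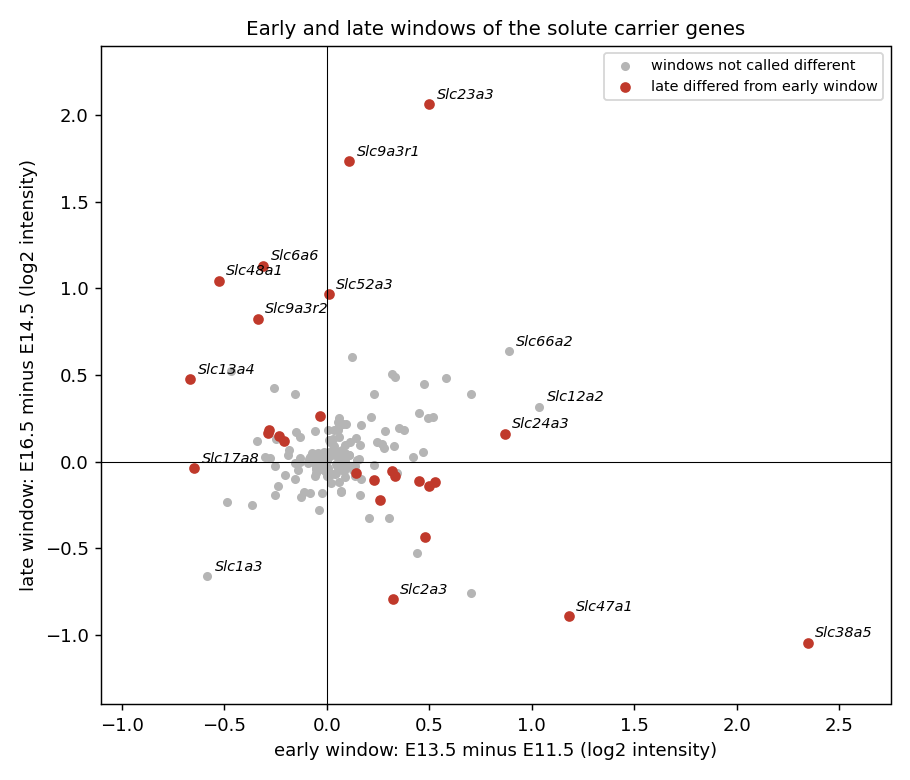
Late window difference (E16.5 minus E14.5, vertical axis) against early window difference (E13.5 minus E11.5, horizontal axis), both on the log2 scale, for the 172 solute carrier genes, with the 26 whose windows differed in red. Slc38a5 lies at 2.35 and -1.04 and Slc23a3 at 0.50 and 2.07, while Slc66a2, at 0.89 and 0.64, is grey.

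A further 20 members were called by the F test but not between E16.5 and E11.5, a pattern that was not counted over all genes. By the range of their stage means the leading 6 were Slc48a1, Slc9a3r2, Slc2a13, Slc44a1, Slc13a4 and Slc6a8, and 5 of these had their lowest stage mean at E14.5. Slc44a1 stood at 10.44 ± 0.23 at E12.5, 9.67 ± 0.07 at E14.5 and 10.09 ± 0.37 at E16.5 (SD, n = 3 each; F test adjusted p = 0.016, limma). Slc2a13, which takes up myo-inositol with protons, averaged 8.92 ± 0.03 at E12.5, 8.12 ± 0.12 at E14.5 and 8.51 ± 0.37 at E16.5 (F test adjusted p = 0.021). Slc9a3r2, the second exchanger scaffold, averaged 9.28 ± 0.13 at E11.5, 8.87 ± 0.07 at E14.5 and 9.69 ± 0.33 at E16.5 (F test adjusted p = 0.0054). The creatine transporter Slc6a8 went the other way, with its highest mean, 8.82 ± 0.07, at E14.5 and 8.12 ± 0.02 at E11.5 (F test adjusted p = 0.037). Several of these F tests were lost without single arrays: Slc2a13 without E14.5 replicate 2 or 3, Slc13a4 without any one E11.5 array or E14.5 replicate 1 or 2, and Slc6a8 without any one array of E11.5 or E14.5, or without E12.5 replicate 2 or 3, E13.5 replicate 3 or E16.5 replicate 2. That of Slc48a1 was lost with the replicate number as a block (adjusted p = 0.052) and without any one array of E11.5 or E14.5, or without replicate 2 or 3 of E12.5, E13.5, E15.5 or E16.5. A dimmer probe of Slc44a1 differed by 0.56 between E16.5 and E11.5 where the main one differed by -0.27, and neither direction is given as a change.

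At E14.5 the cardiomyocyte and epicardial markers stood apart from E11.5, beside the members that were lowest or highest there. Replicate 1 of E15.5 lay near the E14.5 arrays, with sums of 69038 intensity units for the cardiomyocyte list and 5640 for the epicardial list. The 16 cardiomyocyte markers, all measured, summed to 13985 to 19049 intensity units at E11.5, 60384 to 65118 at E14.5 and 17680 to 60809 at E16.5. The 13 epicardial and mesothelial markers were all measured and all above the floor at these stages. They summed to 13722 to 14067 at E11.5, 4947 to 5185 at E14.5 and 8733 to 11355 at E16.5. A sum is weighted to the brightest genes, and their mean log2 intensity was 8.86 to 9.03, 7.97 to 8.05 and 8.93 to 9.23 at these stages. Between E16.5 and E11.5, 4 of the 13 were called higher and 4 lower, and of the cardiomyocyte markers 5 higher and 1 lower. The 12 endothelial markers summed to 2862 to 2897 at E11.5, 14069 to 16747 at E14.5 and 25126 to 31551 at E16.5, and 10 of the 12 were called higher at E16.5 than at E11.5. At E11.5, 3 of them were at or under the floor on all arrays. The part of these cell types in the members' courses was not tested. Erythroid, leukocyte and fibroblast markers were measured for 5 of 8, 3 of 7 and 6 of 7 genes, and 4, 2 and 5 of those were called higher at E16.5 than at E11.5.

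Slc8a1, the sodium and calcium exchanger of heart muscle membranes, was high on the same late arrays as the cardiomyocyte markers. It read 10.06, 10.07 and 10.18 at E14.5, then 10.32, 8.58 and 9.14 at E15.5 and 10.04, 8.91 and 9.08 at E16.5, in each case with replicate 1 first. The replicates 1 of E15.5 and E16.5 were high for Slc8a1 as they were for the markers. No difference was called for it (adjusted p = 0.21 between E16.5 and E11.5, limma). The mitochondrial phosphate carrier Slc25a3 had the same pattern, with 10.32, 8.66 and 8.83 at E15.5 and 10.13, 9.17 and 8.80 at E16.5, and Slc25a5 and Slc6a8 were also highest on those replicates. A second probe of Slc25a3 differed by 0.42 between E16.5 and E14.5 where the main one differed by -0.53. The difference of the main probe was not called, and the second probe was not tested on its own. For the members with large late differences the direction was the same with both arrays left aside: 2.01 for Slc9a3r1, 1.18 for Slc6a6, 1.29 for Slc48a1, -1.01 for Slc38a5 and -1.14 for Slc47a1. The E14.5 arrays, which stayed in, also had raised cardiomyocyte markers, with mean log2 intensities of 10.57, 10.48 and 10.66. The remaining E16.5 arrays gave 9.16 and 8.86. This setting therefore does not even out the markers between E14.5 and E16.5, and their part in these differences was not tested.

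**Figure D4:**
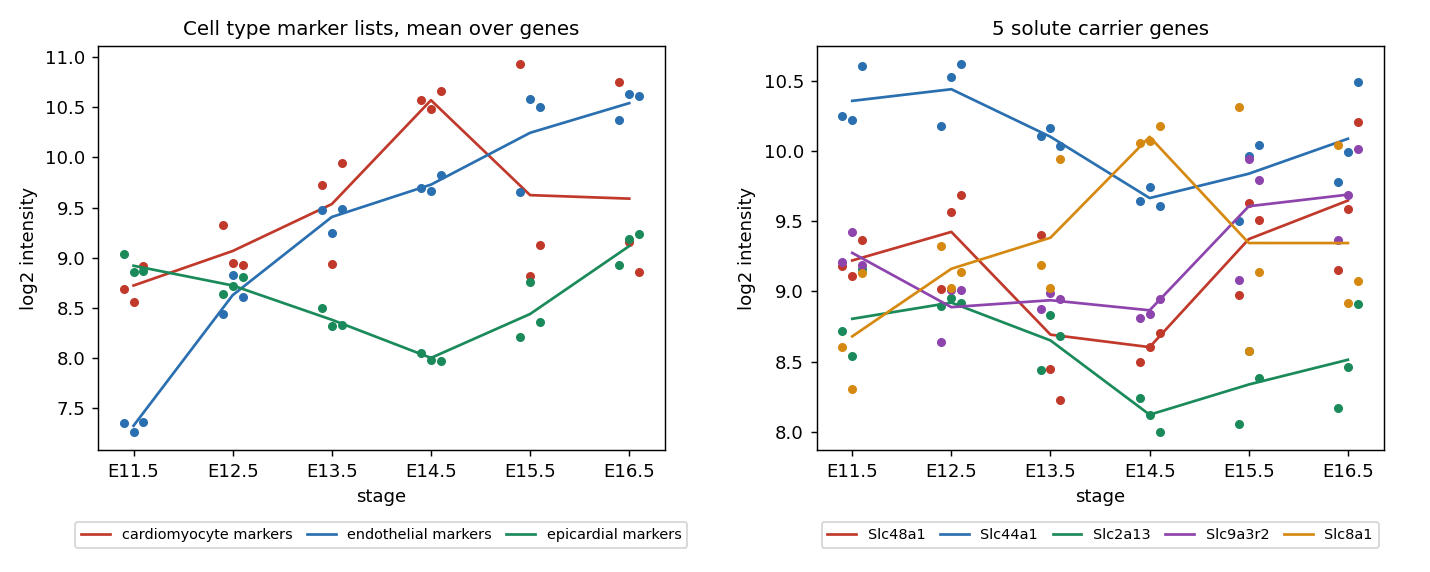
Left, mean log2 intensity of the cardiomyocyte, endothelial and epicardial marker lists (vertical axis) on each array of the 6 stages (horizontal axis), with lines through stage means; right, log2 intensity of 5 solute carrier genes on the same arrays. Cardiomyocyte markers and Slc8a1 were both high on all E14.5 arrays and on replicate 1 of E15.5 and E16.5, while Slc48a1, Slc44a1, Slc2a13 and Slc9a3r2 had their lowest stage means at E14.5.

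Some members known from most cells had no called difference between E16.5 and E11.5. Slc38a2, a glutamine transporter that cells raise when amino acids run short, averaged 10.84 ± 0.13 at E16.5 and 10.58 ± 0.33 at E11.5 (SD, n = 3 each; adjusted p = 0.2, limma), and it was called without E11.5 replicate 3 (difference 0.45, adjusted p = 0.02). Slc40a1, the iron exporter, averaged 9.29 ± 0.75 at E16.5 and 8.90 ± 0.09 at E11.5 (adjusted p = 0.29, limma), and its E16.5 replicate 3 read 10.15, against 8.77 and 8.94 for the other two. The zinc transporters Slc30a1 and Slc39a1 differed by -0.00 ± 0.09 and -0.12 ± 0.07 (SE), and Slc39a1 was called without E16.5 replicate 1 (adjusted p = 0.045, limma). Slc20a1, which takes up phosphate, and Slc7a11, which exchanges cystine for glutamate, lay about the floor at every stage, with means of 6.79 and 6.72 over the 18 arrays. The full-span calls of Slc13a4, Slc44a1 and Slc9a3r2 also appeared on leaving out arrays: without E16.5 replicate 3 for Slc13a4 and Slc44a1 (adjusted p = 0.0077 and 0.043, limma), and without replicate 1 of E15.5 or E16.5 for Slc9a3r2 (adjusted p = 0.03 and 0.039). With the replicate number as a block Slc9a3r2 was also called over that span (0.42, adjusted p = 0.037). Slc3a2, Slc1a5, Slc16a1 and Slc25a4 had no probe above the floor on 3 arrays, with highest values of 110, 106, 103 and 98.0 intensity units, and Slc7a5 was not analysed here.

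Probes of the same gene did not always give the same size. Of the 172 members 47 had several probes above the floor, and the brightest stood for the gene. Among 18 such members called between E16.5 and E11.5, another probe went the opposite way in 3, and in 12 another probe of the same sign differed by less than 50% of the printed value. The 3, named after their values were seen, were the carnitine transporter Slc22a5 (0.43, other probes 0.23 and -0.04), the mitochondrial aspartate and glutamate carrier Slc25a12 (0.25 and -0.03) and Slc44a2 of the choline transporter-like family (0.46, other probes 0.04 and -0.02). The other probes of opposite sign had mean log2 intensities of 6.73 to 6.82, about the floor.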

How the data were processed

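Total RNA from the sorted cells was labelled with biotin from 200 ng of input and hybridised to Illumina bead arrays, per the labels' protocols. GenomeStudio 2011.1 is named in the submitters' processing notes. No source used here states how the arrays were normalized or whether background was subtracted. The authors' deposited values are linear probe intensities from 83.8 to 17358, and the sorted values of the 18 columns differ by at most 2.04 units, as quantile normalization gives. A second table was not used here, since the headers of its 36 value columns are running numbers that no label holds. The design had assumed its detection p-values, which a floor estimated from the intensities replaced.

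Log2 was taken of the deposited intensities. The floor, 109 units (6.77 log2), lies above the background mode of 99 units by the spread of the values under it (SD 0.059 log2), at a tail of 0.01. Of 45281 probes 20324 passed it on at least 3 arrays, 17176 of them with 1 gene symbol, and the brightest probe stood for a gene. Of all probes 34885 have 1 symbol in the platform's table, 18 several and 10378 none listed. All 172 members matched the RefSeq gene table by Entrez number. Groups came from the stage label and replicate numbers from the titles. Differences were fitted with limma 3.58.1 in R 4.3.3 (12 residual degrees of freedom) to the 18 arrays together, each stage having its own mean, and labels were read with jsonlite 2.0.0. A gene under the floor on all arrays of its dim stage is given as "at least N-fold", the bright stage's mean over the higher of the floor and the dim value. Same-numbered arrays deviated together between E16.5 and E11.5 (correlations of 0.25, 0.29 and 0.21 over all genes) but at only 0.02 for 1 pair of the early and 0.06 for 1 pair of the late window.

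The members and lists were chosen with earlier results of these data known. Named members are the 12 largest rises and falls over the full span with no overlap and the brighter stage above the floor, the 4 largest per direction in each window, 6 called by the F test alone, the 6 brightest, the 4 largest window differences and a list of well-known carriers. The alternatives were normexp, cyclic loess, other probe filters, the mean of a gene's probes, array weights, a replicate block, only the stages compared and leaving out each array.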

Additional observations from a re-analysis of the deposited data

Results flagged for a closer look

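For 13 named members the change from E14.5 to E16.5 differed from the change from E11.5 to E13.5 in a direct test of late minus early (limma, all p adjusted over all genes). The values below are that difference on the log2 scale. Slc38a5 stood at -3.39 (adjusted p = 1e-05), the extruder Slc47a1 at -2.07 (adjusted p = 0.0036), the glucose transporter Slc2a3 at -1.12 (adjusted p = 0.00048), the creatine transporter Slc6a8 at -0.92 (adjusted p = 0.016) and the exchanger Slc24a3 at -0.71 (adjusted p = 0.015). The first 4 were higher at the end of the early window and lower at the end of the late one, though the single windows of Slc6a8 and the early one of Slc2a3 were not called. Slc24a3 rose early, by 0.87, and had a late difference of 0.16.

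On the positive side were the scaffold Slc9a3r1 at 1.63 (adjusted p = 0.0054), Slc48a1 at 1.57 (adjusted p = 0.023), Slc23a3 at 1.57 (adjusted p = 0.0032), the taurine transporter Slc6a6 at 1.44 (adjusted p = 3.3e-05), Slc9a3r2 at 1.16 (adjusted p = 0.01), Slc13a4 at 1.14 (adjusted p = 0.011), the riboflavin transporter Slc52a3 at 0.96 (adjusted p = 0.026) and Slc17a8 at 0.61 (adjusted p = 0.00011). At E14.5 and E16.5 no Slc17a8 array passed the floor, and its value holds the early fall. Slc23a3 had no array above the floor at E11.5 and Slc52a3 none at E11.5 or E13.5, so their early differences, and with them the values above, are not fully measured. The difference of Slc52a3 lost its call on leaving out replicate 1 of E11.5 or E14.5, replicate 2 of E13.5, E14.5 or E16.5, or replicate 3 of the last stage (adjusted p between 0.051 and 0.068, limma), and that of Slc48a1 was lost without any one of the 5 arrays named in the text. Stages have 3 arrays each, too few to ask whether 1 array is an outlier.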

How the results depend on the processing

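Of 2059 alternative values of 77 named results 1940 kept the same call and direction, 106 lost the call (17 results), 13 gained one (5 results) and 0 reversed, and 55 results kept theirs under all alternatives run. Array weights moved the counts most. They gave 111 members by the F test and 51 with differing windows. The early window held 46 higher and 23 lower, and the late window 38 and 20. Of all genes they called 69.0% by the F test and 30.9% with differing windows. Their early shares of all genes were 19.2% higher and 18.4% lower, and their late ones 16.9% and 17.3%. Restricting to genes above the floor on all 18 arrays gave 23 higher over the full span and 7 higher in the late window, with fewer genes tested. Of the genes tested there 15% and 9.05% were called higher. Cyclic loess gave 10 lower over the full span, beside 13.9% of all genes. With both arrays of raised cardiomyocyte markers left aside, an alternative chosen after seeing the data, the late window gave 31 higher and 14 lower, and 40 members had differing windows. Leaving out single arrays gave 56 to 82 members by the F test, 28 to 37 higher and 12 to 21 lower over the full span, 13 to 35 and 5 to 18 in the early window, 9 to 23 and 4 to 10 in the late window, and 20 to 39 with differing windows. For single arrays left out the shares of all genes are not given here. With the replicate number as a block the counts were 69 by the F test, 39 and 20 over the full span, 32 and 13 early, 20 and 9 late, and 30 with differing windows. In the same order the shares of all genes under the block were 45.2%, 17.1% and 20.6%, 9.74% and 10.4%, 11.2% and 9.08%, and 15.3%. Of the named calls the block changed the 2 given in the text, those of Slc48a1 and Slc9a3r2. The settings moved the median of all genes by under 0.1 on the log2 scale. The F test has no value for the alternative that keeps only the stages compared. The cause of these moves was not tested. Dim signal limits the rest: a member near the floor can differ in RNA by more than its intensities show.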

Other observations

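Genes of other transport families, picked by symbol alone, gave 18 called higher and 7 called lower at E16.5 than at E11.5 among 71 measured (limma), beside 15.8% higher and 18.5% lower over all genes. Of 29 genes with an ABC family symbol, not all of which need be transporters, 8 were higher and 1 lower. Of 13 Mfsd genes 2 were higher and 2 lower, and of 12 other P-type pumps 2 were higher and 2 lower. The examples here were chosen after their values were seen. The water channel Aqp1 averaged 12.12 at E16.5 and 7.28 at E11.5 on the log2 scale, a rise of 4.84 ± 0.26 (SE; adjusted p = 8.1e-09, limma). Abcc9, a subunit of potassium channels gated by ATP, averaged 8.38 at E16.5 and 6.77 at E11.5, where 2 of 3 arrays were above the floor. Atp1b1, a subunit of the sodium and potassium pump, averaged 10.23 at E16.5 and 9.11 at E11.5 (adjusted p = 0.002, limma), and the calcium pump gene Atp2a3 averaged 8.51 and 7.31 at these stages. Among those that fell, the copper pump Atp7a averaged 8.08 at E16.5 and 8.90 at E11.5 (adjusted p = 0.0056, limma). Slco3a1, of the organic anion transporter family, averaged 7.31 at E16.5 and 7.84 at E11.5 (adjusted p = 0.00058, limma).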
